A study of Mus musculus with 2 samples.

Results

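*Tshz2*-high excitatory neurons were nuclei with transcripts of glutamatergic projection neurons and a high level of *Tshz2* in single-nucleus RNA sequencing of the mouse hippocampus. A nucleus was chosen by its own UMIs (unique molecular identifiers, 1 for each captured transcript), so *Tshz2* and the other genes of the choice describe the nuclei and are not findings. The nucleus had at least 3000 UMIs, at most 5% mitochondrial UMIs and at least 3 UMIs summed over *Slc17a7*, *Slc17a6*, *Camk2a*, *Neurod2* and *Neurod6*. Per 10000 of its UMIs it held at least 10 of *Tshz2*, fewer than 8 summed over the dentate granule genes *Prox1*, *Trpc6*, *Dsp* and *C1ql2*, fewer than 3 of *Gad1* and *Gad2*, and fewer than 5 of the oligodendrocyte genes *St18* and *Prr5l*. There were 1560 such nuclei among 22389 in the series, 576 in the PS19 library and 984 in the PZKO library.

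Both libraries came from the hippocampus of male mice (strain given as PS19 ZBP1) aged 9 months that carry the PS19 transgene, a mutant human tau driven by the mouse prion protein promoter. PS19 mice were wild type for *Zbp1* and PZKO mice were PS19 mice with *Zbp1* knocked out, and neither library came from mice without the tau transgene. Each library is described as a pool of the hippocampi of 5 males, although another passage of the methods has the animals handled one by one, and the counts carry no animal label. Each genotype is therefore 1 library, and genotype, pool, dissection and library preparation cannot be told apart. No test between genotypes was possible, and the 95% intervals below cover counting error only.

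*Tshz2* encodes a zinc finger transcription factor of the teashirt family. In the cerebral cortex it is known as a marker of near-projecting pyramidal neurons, deep-layer cells whose axons stay local, and it is also found in pyramidal neurons of the subiculum and retrosplenial cortex, regions that border the hippocampus. *Vwc2l* encodes a secreted protein with von Willebrand factor C domains, and *Sgcz* encodes zeta-sarcoglycan, a membrane protein of the dystrophin complex. These are the genes that were given as marks of the nuclei. In the mm10 (GRCm38) annotation the gene *Tshz2* lies on chromosome 2 from 169633013 to 170071816 (plus strand), *Vwc2l* on chromosome 1 from 70725715 to 70885397 (plus strand) and *Sgcz* on chromosome 8 from 37522298 to 38661508 (minus strand).

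Sequencing gave 116488513 UMIs over 11469 nuclei for PS19 and 171167884 UMIs over 10920 nuclei for PZKO. Depth and mitochondrial limits left 8164 and 8679 nuclei, of which 4040 and 4617 held the excitatory transcripts. After the limits on dentate, inhibitory and oligodendrocyte genes, 2797 PS19 and 3449 PZKO excitatory nuclei remained. Those under the *Tshz2* limit, 2221 and 2465 nuclei, are called other excitatory nuclei here and were the main comparison. The 2 libraries shared 47 cell barcodes, none of them (0) of a *Tshz2*-high nucleus.

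The *Tshz2*-high nuclei were deeper in PZKO, with a median of 24270.5 UMIs against 17438 in PS19. The other excitatory nuclei had medians of 28962 and 20054 UMIs in the same order. Summed over nuclei, the *Tshz2*-high nuclei held 11434647 UMIs in PS19 and 26347467 in PZKO.

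*Tshz2* ranged from 10.04 to 83.21 UMIs per 10000 in the PS19 nuclei, with a median of 20.69. In the PZKO nuclei it ranged from 10.02 to 84.95, with a median of 23.12. The values did not break at the limit, and the nuclei just outside held 9.997 in PS19 and 9.977 in PZKO. Between 9 and 10 UMIs per 10000 there were 26 and 39 nuclei, and between 10 and 11 there were 22 and 36. Most other excitatory nuclei lay far from the limit, since 80.6% of them in PS19 and 68.6% in PZKO had no *Tshz2* UMI.

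**Figure D1:**
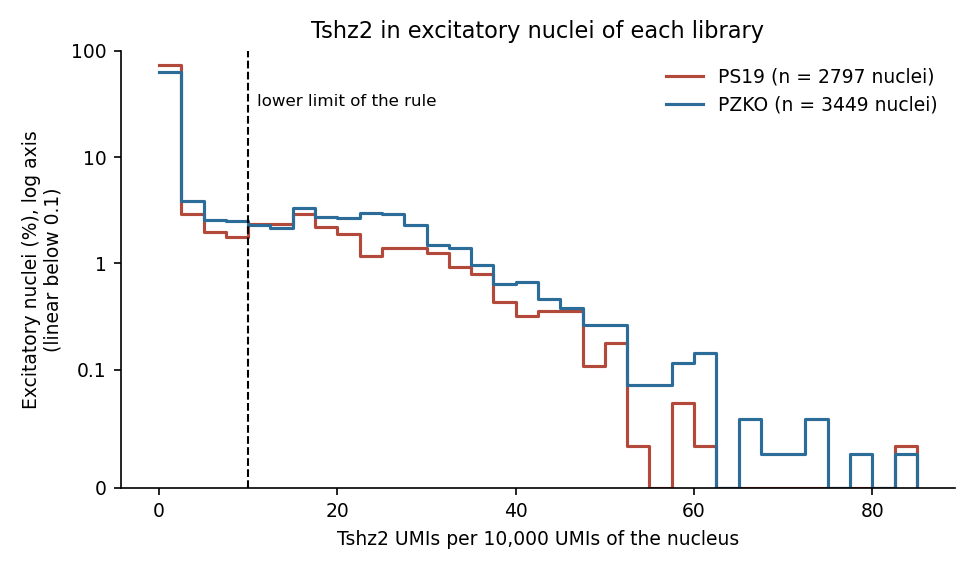
Distribution of *Tshz2* UMIs per 10,000 UMIs of the nucleus (x axis) over the 2797 PS19 and 3449 PZKO excitatory nuclei, as the percentage of nuclei in each bin (y axis, logarithmic, linear below 0.1). The dashed line is the lower limit of 10 for *Tshz2*-high nuclei, and the lines of both libraries pass it without a gap.

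*Tshz2*-high nuclei were 20.59% of the excitatory nuclei in PS19 (95% exact binomial interval 19.11 to 22.14) and 28.53% in PZKO (27.03 to 30.07). The share was 7.94 percentage points higher in PZKO. Of all nuclei within the depth and mitochondrial limits they were 7.06% and 11.3%. With each nucleus thinned to 3000 UMIs before the choice, the shares were 18.79% of 1809 and 27.96% of 2078 excitatory nuclei, so the difference remained at equal depth. The spread of such a share between animals or dissections of 1 genotype is not known here. The counts also leave out nuclei with 10 or more *Tshz2* UMIs per 10000 that failed another limit. These were 85 PS19 and 103 PZKO nuclei with too few excitatory transcripts, 31 and 44 over a limit on other cell types, and 140 and 123 with fewer than 3000 UMIs.

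*Vwc2l* and *Sgcz* were given as marks of these nuclei and check the label. Neither entered the choice, and both were higher in *Tshz2*-high than in other excitatory nuclei in both libraries. *Vwc2l* was at 489 CPM (counts per 1000000 UMIs of the summed nuclei) in *Tshz2*-high nuclei of PS19 and 453 CPM in PZKO, against 37.6 and 52.7 CPM in other excitatory nuclei. The log2 ratio of *Tshz2*-high over other nuclei was 3.70 (3.62 to 3.78) in PS19 and 3.10 (3.05 to 3.16) in PZKO. *Sgcz* was at 3871 and 4119 CPM against 956 and 1252 CPM, with log2 ratios of 2.02 (2.0 to 2.04) and 1.72 (1.71 to 1.73). In each case the separation was smaller in PZKO, where the other nuclei held more of both genes and also more *Tshz2* (93.8 against 59.8 CPM in PS19).

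A *Vwc2l* UMI was nevertheless missing from most *Tshz2*-high nuclei at equal depth. After thinning to 3000 UMIs, 39.24% (PS19) and 41.06% (PZKO) of the *Tshz2*-high nuclei had one, and 51.6% and 55.2% before thinning. Other excitatory nuclei had a *Vwc2l* UMI in 5.90% and 7.38% after thinning (11.8% and 17.6% before). Nuclei with microglial transcripts, which should lack the gene, had one in 0 of 616 and 4 of 585 after thinning. *Sgcz* was more widespread, in 83.3% and 83.8% of *Tshz2*-high nuclei, 37.2% and 49.4% of other excitatory nuclei and 2.11% and 5.81% of nuclei with microglial transcripts after thinning. The median depth before thinning was 4138 UMIs (PS19) and 5107 UMIs (PZKO) in the nuclei with microglial transcripts.

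Marker lists of cortical and hippocampal neurons placed the *Tshz2*-high nuclei as a mixture. Beyond *Tshz2*, which the choice used, and *Vwc2l* and *Sgcz*, all 4 remaining near-projecting markers (*Trhr*, *Sla2*, *Lypd1* and *Slc17a8*) were higher than in other excitatory nuclei in both libraries, beside 53.5% of all genes in PS19 and 54.2% in PZKO. Other lists had higher members too, with 7 of 9 superficial intratelencephalic markers in PS19 and 6 of 9 in PZKO, 3 of 5 deep intratelencephalic markers in each, and 3 and 4 of 5 extratelencephalic markers. Of the 5 markers of layer 6 corticothalamic neurons 2 were higher in PS19 and 1 in PZKO. *Slc17a8*, a vesicular glutamate transporter, was at 2.36 and 3.11 CPM against 0.565 and 0.328 CPM, and *Trhr*, the receptor of thyrotropin-releasing hormone, at 11.5 and 12.2 CPM against 5.23 and 5.27 CPM. Of the subiculum markers *Slc17a6* entered the choice, and the other 4 were higher too, with *Fn1*, which encodes fibronectin, at 32.1 and 31.7 CPM against 4.20 and 6.01 CPM and *Cntn6*, an axonal adhesion protein, at 417 and 309 CPM against 104 and 127 CPM. Of the 5 CA1 markers only *Mpped1* was higher. *Fibcd1*, typical of CA1 pyramidal neurons, was at 0.875 and 1.21 CPM in *Tshz2*-high nuclei against 9.32 and 9.95 CPM in other excitatory nuclei. Of the 5 CA3 markers 1 was higher in PS19 and 0 in PZKO, and of the 5 CA2 markers 2 were higher in PS19 and 0 in PZKO, although the tissue was labelled hippocampus.

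Across 12855 genes with at least 100 UMIs in the *Tshz2*-high nuclei, 448 were at least 2-fold higher than in other excitatory nuclei in PS19 (3.49%) and 435 at least 2-fold lower (3.38%). In PZKO 286 were higher (2.22%) and 422 lower (3.28%). The 246 genes that were higher in both libraries made up 54.9% of the PS19 list and 86.0% of the PZKO list. The 320 genes lower in both made up 73.6% and 75.8%. The contrast shares the choice on *Tshz2*, and the minimum of UMIs applies to the *Tshz2*-high nuclei, which removes genes that are low there, so the counts describe the nuclei and the balance of higher and lower genes is set in part by the minimum. With a minimum of 20 UMIs the PS19 counts were 781 higher and 1134 lower.

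*Npsr1*, the receptor of neuropeptide S, led the raised genes, with 95.2 CPM in PS19 and 133 CPM in PZKO *Tshz2*-high nuclei against 2.81 and 2.49 CPM in other excitatory nuclei. *Hmga2*, a chromatin protein of the high mobility group, was at 9.18 and 8.08 CPM against 0.182 and 0.101 CPM. *Atp10b*, a lipid flippase, was at 15.7 and 15.4 CPM against 0.727 and 0.644 CPM. Of its UMIs in *Tshz2*-high nuclei, 178 of 180 in PS19 and 389 of 405 in PZKO came from 1 group of nuclei, subcluster 2 below. *Bmper*, which binds bone morphogenetic proteins, was at 94.0 and 104 CPM against 14.7 and 23.9 CPM. *Itpr3*, an intracellular calcium release channel, had log2 ratios of 3.35 and 2.77. The other raised genes by the same ranking in PS19 were *Bglap3*, *Gm31045*, *Ebf2*, *Gm49906*, *Teddm3*, *Gm6260*, *Gm42707* and *Cdcp1*, besides *Vwc2l* and *Fn1*, and all were higher in PZKO as well, with log2 ratios of at least 1.95 (*Ebf2*). The *Ebf2* UMIs came from only 9 PS19 and 11 PZKO nuclei.

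The most lowered genes were *Cntnap5c* (contactin-associated family), the noncoding *4921539H07Rik*, *Erbb4* (a neuregulin receptor of interneurons), *Col11a1* (a fibrillar collagen) and *Zbtb20*. *Zbtb20*, a transcription factor of hippocampal pyramidal and granule neurons, was at 204 and 151 CPM in *Tshz2*-high nuclei against 1761 and 1368 CPM in other excitatory nuclei, with log2 ratios of -3.11 and -3.18. *Erbb4* was at 23.9 and 20.2 CPM against 250 and 267 CPM. The log2 ratios of *Cntnap5c* were -4.10 and -4.23.

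The level of a few genes followed *Tshz2* over 10 points, formed by 5 groups of neurons in the 2 libraries (*Tshz2*-high nuclei, nuclei with *Foxp2* and *Hs3st4*, nuclei with *Exph5* and *Prr16*, the remaining excitatory nuclei, and dentate granule nuclei). *Lzts1*, *Ccdc163* and *Bahcc1* were closest, with Pearson r of log2(CPM + 1) of 0.97, 0.96 and 0.96, and *Vwc2l* had 0.92 and *Sgcz* 0.77. *Lzts1* was at 147 and 143 CPM in *Tshz2*-high nuclei, between 94.5 and 103 CPM in the other excitatory groups and at 81.0 and 82.3 CPM in dentate nuclei. The points share 2 libraries and were split by *Tshz2* itself, so r is a description without a test.

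*Tshz2*-high nuclei also overlapped other kinds of excitatory neuron. *Foxp2* and *Hs3st4*, typical of deep cortical layers, together reached 10 UMIs per 10000 in 27.43% of the PS19 nuclei (158 of 576) and 25% of the PZKO nuclei (246 of 984). Of the other excitatory nuclei, 511 of 2221 in PS19 and 564 of 2465 in PZKO formed the group with these genes. This group leaves out nuclei that also reached the limit for another gene pair named below, so the 2 kinds of count are not alike. *Foxp2* alone was lower in *Tshz2*-high than in other excitatory nuclei, with log2 ratios of -0.50 and -1.18. *Exph5* and *Prr16* together reached 10 UMIs per 10000 in 15.28% and 14.84% of the *Tshz2*-high nuclei. *Rxfp1* and *Npsr1* did so in 28 and 58 *Tshz2*-high nuclei. Among other excitatory nuclei their group, again without nuclei that also reached the limit for another pair, held 0 and 5 nuclei. These were too few for a comparison group, and the counts are not like those of the *Tshz2*-high nuclei.

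Clustered on their own, the *Tshz2*-high nuclei fell into 18 subclusters, and 12 of them had at least 20 nuclei in each library. Every subcluster held *Tshz2*, as the choice requires, from 1243 to 4134 CPM, but *Vwc2l* ranged from 0.240 to 1757 CPM. *Vwc2l* was below 10 CPM in 2 subclusters, with 146 PS19 and 214 PZKO nuclei, and at 100 CPM or more in 13. The 4 subclusters with the most *Vwc2l* UMIs held 85.5% of them in PS19, with 31.1% of the nuclei, and 81.7% in PZKO, with 34.2% of the nuclei. *Sgcz* ran from 244 to 9165 CPM. *Vwc2l* thus marked some kinds of *Tshz2*-high nucleus and not others.

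**Figure D2:**
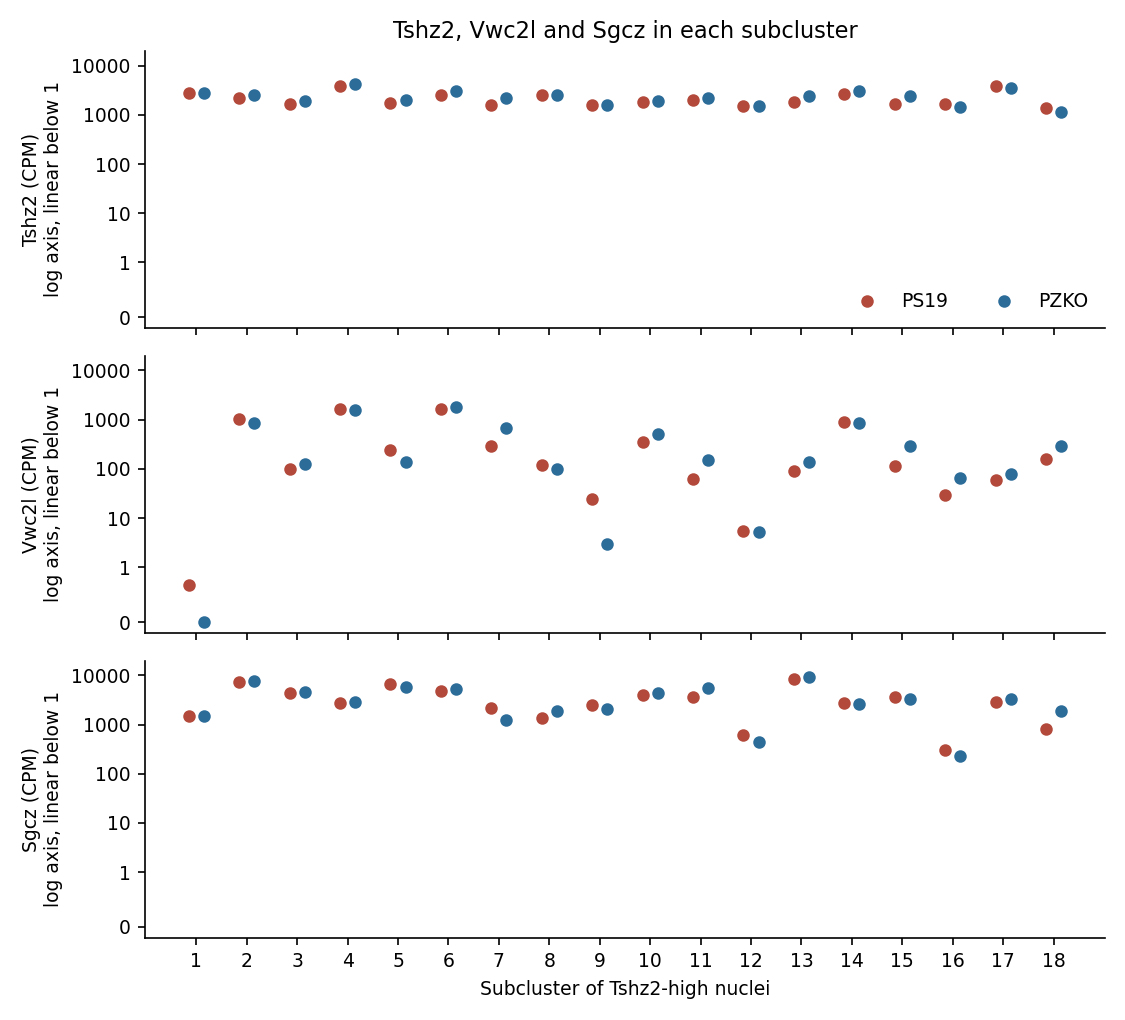
Level of *Tshz2*, *Vwc2l* and *Sgcz* (y axes, CPM, logarithmic and linear below 1) in the 18 subclusters of *Tshz2*-high nuclei (x axis), with 1 point for each library. *Tshz2* stays above 1000 CPM throughout, while *Vwc2l* is near 0 in subcluster 1 and at 1652 and 1846 CPM in subcluster 6.

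Subcluster 1 was the largest, with 125 PS19 and 175 PZKO nuclei, and had 1 *Vwc2l* UMI in PS19 and 0 in PZKO. It was led by *Shisa8*, which encodes an auxiliary protein of AMPA receptors, *Vwa5a*, *Stat4*, *Cpm* and *Pappa*, and raised no more than 2 markers of any list. Its *Npsr1* level was 104 and 127 CPM. Subcluster 2 (81 and 135 nuclei) was led by *Atp10b*, *Dsc3* and *Tacr3*, a tachykinin receptor, and held *Vwc2l* at 1043 and 873 CPM. Subcluster 6 (52 and 47 nuclei) was led by the potassium channel gene *Kcnh8* and by *Crybg1* and *Gpr139*, and held the most *Vwc2l* (1652 and 1846 CPM). At least 2-fold over the other subclusters, it raised 4 of 5 markers of layer 6 corticothalamic neurons. By the same measure it raised 3 of 9 inhibitory markers (*Gad2*, *Erbb4* and *Adarb2*). Of all genes 4.20% were raised in subcluster 6 by the same measure (at least 2-fold with at least 10 UMIs), and since these genes also formed the subclusters, such counts describe them and test nothing.

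Subcluster 4 (31 and 79 nuclei) was the most like near-projecting neurons. It raised 5 of 7 near-projecting markers (*Vwc2l*, *Trhr*, *Sla2*, *Lypd1* and *Slc17a8*), with *Slc17a8* as its leading gene, and is called near-projecting-like. Of all genes 3.77% were raised there. It also raised all 5 corticothalamic markers, and *Tshz2* itself was highest there, at 3935 CPM in PS19 and 4197 CPM in PZKO. Near-projecting-like nuclei were thus 5.38% of the *Tshz2*-high nuclei in PS19 and 8.03% in PZKO.

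The remaining large subclusters raised other markers. Subcluster 5 (30 and 77 nuclei) was led by *Scube1* and *Ptprm* and raised 2 of 5 deep intratelencephalic markers (*Deptor* and *Il1rapl2*) and 3 of 7 oligodendrocyte markers (*Mog*, *St18* and *Prr5l*). Subcluster 9 (32 and 43 nuclei) raised 3 of 5 subiculum markers (*Fn1*, *Nts* and *Gpr101*) and all 5 markers of extratelencephalic neurons, which project outside the telencephalon. Subcluster 11 (28 and 37 nuclei) raised 4 of 5 extratelencephalic markers, and *Qrfpr*, the receptor of the neuropeptide QRFP, led it. Subclusters 10 and 12 each raised 4 of 5 corticothalamic markers, subcluster 3 raised 4 of 9 superficial intratelencephalic markers (*Cux1*, *Lamp5*, *Rspo1* and *Calb1*) and subcluster 8 raised 3 (*Otof*, *Calb1* and *Cxcl14*). Among the small ones, subcluster 18 (4 and 5 nuclei) raised all 5 thalamic markers, with *Prkcd* and *Tcf7l2* among its leading genes, and is thalamus-like. Subcluster 16 (7 and 11 nuclei) was led by *Ebf2*, *Corin*, *Postn* and *Ebf3* and stayed unnamed. Of all genes, the share raised was 1.98% in subcluster 3, 1.56% in subcluster 5, 2.66% in subcluster 8, 3.30% in subcluster 9, 2.22% in subcluster 10, 1.79% in subcluster 11, 3.32% in subcluster 12 and 5.26% in subcluster 18. Subclusters 13, 14 and 17, with 3 of 9 superficial intratelencephalic, 3 of 5 corticothalamic and 4 of 5 extratelencephalic markers raised, had 3.83%, 3.35% and 2.92% of all genes raised.

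Some *Tshz2*-high nuclei held transcripts of non-neuronal cells. Subcluster 7 (23 and 76 nuclei) raised all 5 endothelial and mural markers (*Flt1*, *Cldn5*, *Pecam1*, *Pdgfrb* and *Rgs5*) and 4 of 5 astrocyte markers. Subcluster 15 (8 and 12 nuclei) raised all 5 microglial markers and was led by *Dock2*, *Dock8* and *Myo1f*. Of all genes 5.54% were raised in subcluster 7 and 4.47% in subcluster 15. By Scrublet score, 43.5% of the PS19 and 39.5% of the PZKO nuclei of subcluster 7, and 100% and 91.7% of those of subcluster 15, were among the nuclei marked as likely doublets. In subcluster 13 the marked share was 33.3% of 15 PS19 nuclei and 2.78% of 36 PZKO nuclei. Over all *Tshz2*-high nuclei 5.73% and 6.10% were marked.

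Shares of subclusters differed between the libraries in a few cases by more than counting error. Subcluster 6 made up 9.03% (6.82 to 11.7) of the PS19 nuclei and 4.78% (3.53 to 6.30) of the PZKO nuclei. Subcluster 7 made up 3.99% (2.55 to 5.93) and 7.72% (6.13 to 9.57). For subcluster 1 the shares of 21.7% (18.4 to 25.3) and 17.8% (15.4 to 20.3) had overlapping intervals, as did those of subcluster 4 (3.69 to 7.55 and 6.41 to 9.91). Shares within each library sum to the same total, so the values are not independent of each other.

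**Figure D3:**
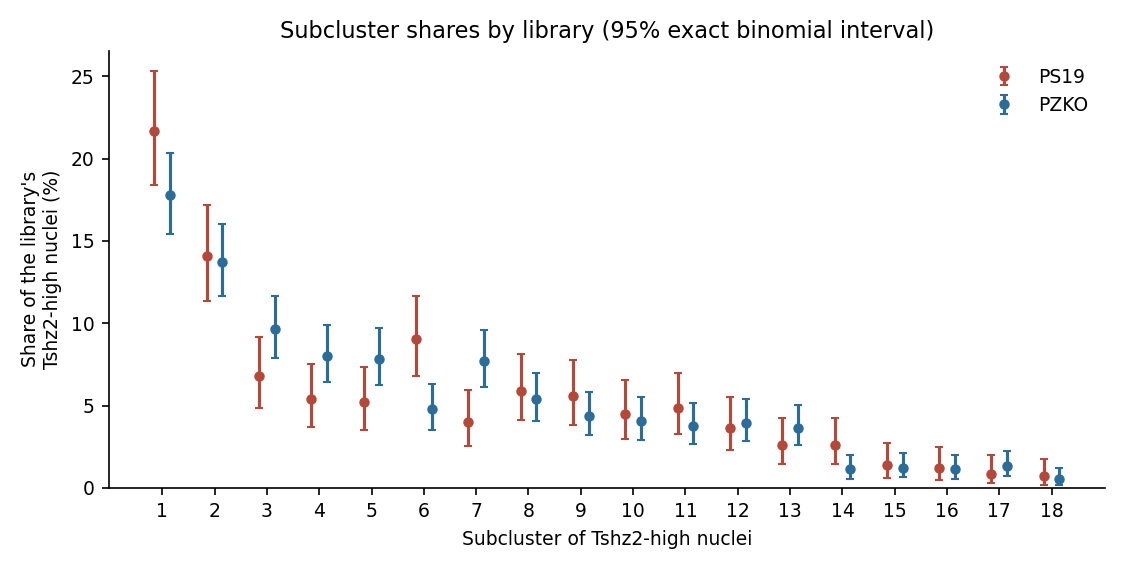
Share of each library's *Tshz2*-high nuclei (y axis, percent) in each of 18 subclusters (x axis), with exact binomial 95% intervals as bars. The intervals of PS19 and PZKO are apart in subclusters 6 and 7 only, with 9.03% against 4.78% and 3.99% against 7.72%.

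Within *Tshz2*-high nuclei few genes differed by 2-fold between the genotypes. Of the 12855 genes, 27 were at least 2-fold higher in PZKO (0.210%) and 47 at least 2-fold lower (0.366%). The median log2 ratio of PZKO over PS19 over all genes was -0.05, and 39.9% of genes were above 0. In other excitatory nuclei the median was also -0.05. Leaving out subclusters 7 and 15 gave 15 genes higher and 53 lower.

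The clearest lower genes in PZKO were lower in every large subcluster. *Ttr*, which encodes transthyretin and is abundant in the choroid plexus, was at 171 CPM in PS19 and 18.7 CPM in PZKO (log2 ratio -3.19, interval -3.34 to -3.05). A *Ttr* UMI was present in 543 of 576 nuclei from PS19 but 367 of 984 from PZKO, and the level was lower in PZKO in 12 of 12 large subclusters. The other excitatory nuclei gave the same log2 ratio, -3.19, from 197 and 21.6 CPM. The other markers of choroid plexus and ependyma were also present at low levels in *Tshz2*-high nuclei, *Folr1* at 1.75 and 0.304 CPM and *Kl* at 4.63 and 3.07 CPM, and none was at 0. Their part in the result was not tested.

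*Bc1*, a noncoding RNA of neuronal dendrites, was at 1561 CPM in PS19 and 692 CPM in PZKO (log2 ratio -1.17, -1.20 to -1.14) and was lower in 12 of 12 large subclusters, with log2 ratios from -1.58 to -0.88. The metallothionein *Mt1* (63.2 and 27.6 CPM) and *Cst3*, the protease inhibitor cystatin C (203 and 102 CPM), were lower in all 12 as well. The small heat shock protein gene *Cryab* was at 10.7 and 3.42 CPM, and the noncoding *Gm19951* and the predicted gene *Gm11867* had log2 ratios of -1.26 and -1.68. Each of these genes was lower in other excitatory nuclei too, with log2 ratios from -1.55 (*Gm11867*) to -0.85 (*Mt1*).

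Some other lower genes had many of their UMIs in 1 nucleus. *Abhd12b* had 100 UMIs in PS19, of which 93 came from 1 nucleus. *Adarb2*, a marker of interneurons, was at 142 and 55.7 CPM, but 35.6% of its PS19 UMIs came from 1 nucleus and it was lower in 8 of 12 large subclusters. Its log2 ratio of -1.35 was -0.44 with at least 5 *Tshz2* UMIs per 10000, no longer past 2-fold, and -2.36 after ambient subtraction. In other excitatory nuclei *Adarb2* was at 516 and 503 CPM. The 9 inhibitory markers, with *Adarb2* the most abundant and none at 0, summed to 199 and 101 CPM in *Tshz2*-high nuclei. Over both libraries they summed to 306 CPM in subcluster 6 and 3176 CPM in the thalamus-like subcluster 18, which both raised *Adarb2*. The part of these markers and subclusters in the result was not tested. *Rnf17* was at 9.01 and 2.73 CPM, with 103 UMIs in 34 nuclei of PS19 and 14.6% of them in 1 nucleus. It was lower in 10 of 12 large subclusters, in 5 with the whole interval below 0, and its log2 ratio was -1.86 to -1.21 over the 13 alternatives. UMIs of 1 nucleus are not independent of each other, and the intervals do not allow for that.

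Some higher genes in PZKO also rested on few nuclei. A single nucleus held at least 25% of the UMIs for 5 of the 27 higher genes and 6 of the 47 lower genes. *Acta2*, smooth muscle actin, had the largest ratio, with 0.437 CPM in PS19 and 4.14 CPM in PZKO (log2 3.24, 1.98 to 4.89). Of its 109 PZKO UMIs, 101 came from 1 nucleus of subcluster 7. *Myh11*, smooth muscle myosin, had 87 of its 119 PZKO UMIs in 1 nucleus. *Cdc14a*, a phosphatase gene, was at 3.85 and 12.4 CPM, with 75% of its PS19 and 94.8% of its PZKO UMIs in subclusters 7 and 15. Without those subclusters the log2 ratio of *Acta2* was -0.65 (-2.52 to 1.35), that of *Cdc14a* was -0.51 (-1.69 to 0.73) and that of *Slc6a20a*, an amino acid transporter, was -0.33 (-1.27 to 0.66).

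Other higher genes stayed higher without these subclusters. The noncoding *1700016P03Rik* was at 16.8 CPM in PS19 and 36.6 CPM in PZKO (log2 ratio 1.13, 0.90 to 1.36). It was detected in 100 and 355 nuclei, was higher in 10 of 12 large subclusters and had a log2 ratio of 1.24 without subclusters 7 and 15. In other excitatory nuclei it was at 21.3 and 42.1 CPM. *Cpa6*, a carboxypeptidase gene, was at 6.73 and 18.7 CPM, with 20.8% of its PS19 and 37.9% of its PZKO UMIs in subclusters 7 and 15. Its log2 ratio was 1.47 over all nuclei, 1.19 (0.79 to 1.61) without those subclusters and 0.52 with a lower limit of 20 *Tshz2* UMIs per 10000. The noncoding *6330411D24Rik* was at 2.62 and 7.82 CPM and was detected in 18 and 54 nuclei, but its log2 ratio of 1.58 turned to -1.12 when nuclei were thinned to 3000 UMIs.

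The study named 20 genes as higher in PZKO excitatory neurons, and these genes split into groups within *Tshz2*-high nuclei. The list was chosen by the study on these same libraries, so its direction is not independent evidence. All 20 were measured and 17 had a log2 ratio above 0, with a median of 0.33 against -0.05 over all genes. The interval lay above 0 for 15 genes (11.9% of all genes) and below 0 for 1 (21.0% of all genes). In other excitatory nuclei all 20 were above 0, with a median of 0.52. The interval of the difference between *Tshz2*-high and other nuclei lay below 0 for 10 of the 20 genes and above 0 for 1, against 14.0% and 8.98% of all 12855 genes.

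Most, but not all, of the measured genes that respond to neuronal activity were higher in PZKO *Tshz2*-high nuclei. *Npas4*, a transcription factor induced by calcium entry, was at 5.25 CPM in PS19 and 10.0 CPM in PZKO *Tshz2*-high nuclei (log2 ratio 0.93, 0.52 to 1.36). *Fos* was at 5.33 and 9.60 CPM (0.85, 0.44 to 1.28) and *Arc*, which acts at synapses, at 17.1 and 30.1 CPM (0.81, 0.58 to 1.04). *Nr4a1*, a nuclear receptor, was at 57.5 and 85.6 CPM and was higher in 11 of 12 large subclusters. For *Arc* the ratio exceeded that of other excitatory nuclei by 0.35 (0.10 to 0.60), the single gene of the 20 with this pattern.

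Across the subclusters the activity genes were not uniform. *Npas4* was higher in PZKO in 10 of 12, with log2 ratios from -0.31 in subcluster 11 to 2.15 in subcluster 5. *Arc* was higher in only 7 of 12. On the full list of 17 activity genes, 14 were measured, 12 were above 0 (10 with the whole interval above 0) and 2 were below it with their intervals, beside 39.9% of all genes above 0 and 11.9% with the interval above 0. The list median was a log2 ratio of 0.39 in *Tshz2*-high nuclei and 0.48 in other excitatory nuclei. The median was above 0 in 9 of 12 large subclusters, from -0.57 in subcluster 12 to 1.21 in subcluster 5. *Jun* (16.3 and 9.91 CPM) and *Nr4a2* (54.0 and 43.6 CPM) were lower in PZKO.

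Each glutamate receptor gene of the list had a smaller ratio in *Tshz2*-high than in other excitatory nuclei. Among these receptor genes the gap was largest for *Grik1* (-0.75), and among all 20 genes for *Syt9* (-0.94). *Grik1*, a kainate receptor subunit, was at 267 CPM in PS19 and 266 CPM in PZKO *Tshz2*-high nuclei (log2 ratio -0.01, -0.07 to 0.05), whereas in other excitatory nuclei its log2 ratio was 0.74 (0.68 to 0.80). *Gria4*, an AMPA receptor subunit, was at 826 and 850 CPM, with a log2 ratio of 0.04 (0.01 to 0.08) against 0.33 in other nuclei. *Grik3* had 0.17 against 0.41 and the metabotropic receptor gene *Grm4* 0.50 against 0.73. *Grik1* levels differed far more between kinds of *Tshz2*-high nucleus than between genotypes, with 1582 and 1424 CPM in subcluster 4 and 3.43 and 0.737 CPM in subcluster 1.

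Among the synaptic and regulatory genes of the list, some had a smaller ratio in *Tshz2*-high nuclei and others a similar one. *Syt9*, a calcium sensor of vesicle release, had -0.21 (-0.48 to 0.06) against 0.72, and its sign turned to 0.18 as a mean over nuclei. The vesicle protein gene *Sv2b* had 0.04 (-0.02 to 0.09) against 0.28. *Homer1*, a postsynaptic scaffold, was higher in both, at 165 and 233 CPM in *Tshz2*-high nuclei (0.49, 0.42 to 0.57) and with 0.67 in other nuclei. *Rora*, a nuclear receptor, had 0.37 in both kinds of nucleus, and *Sema6a*, an axon guidance gene, had 0.55 and 0.58.

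**Figure D4:**
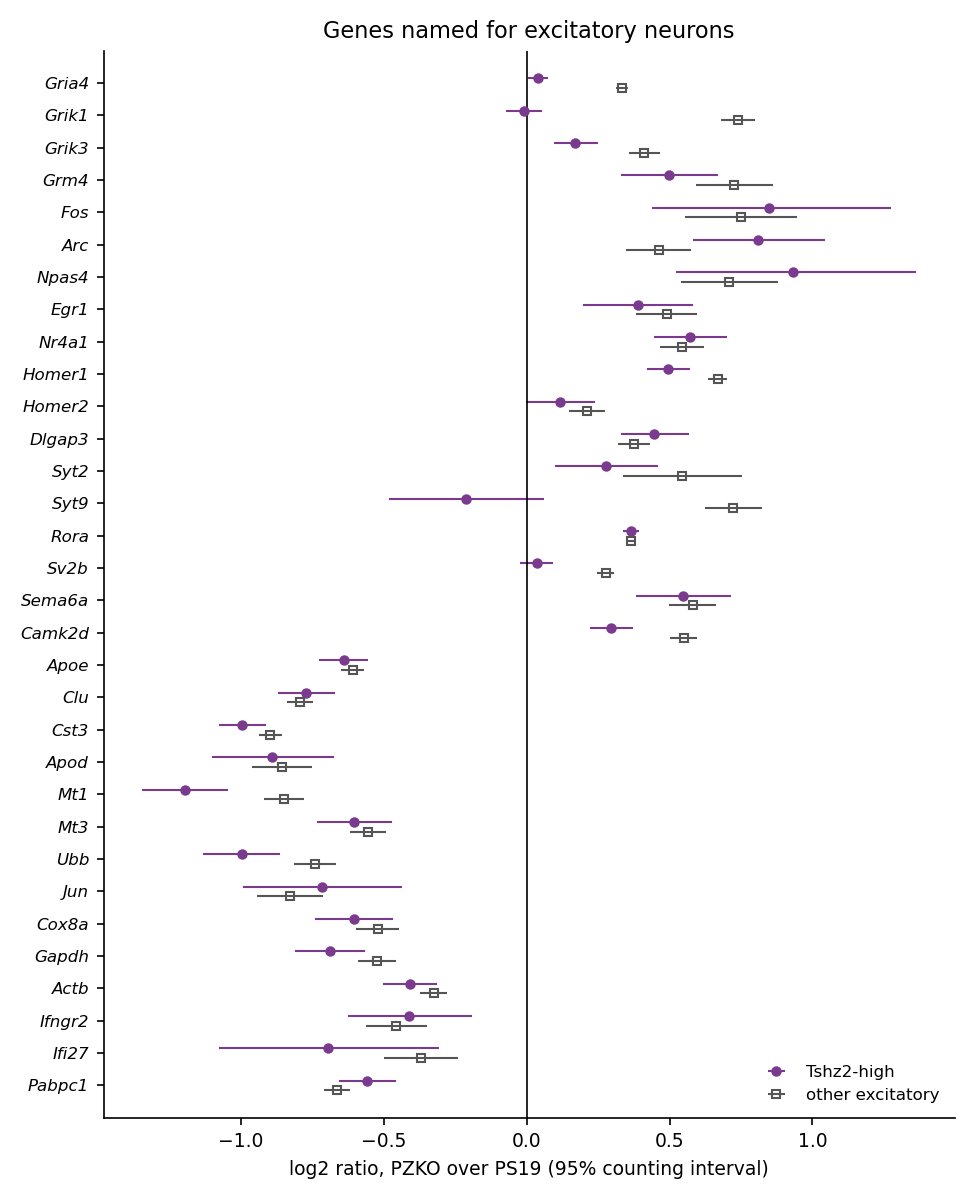
log2 ratio of PZKO over PS19 (x axis) for genes that the study named for excitatory neurons (y axis), in *Tshz2*-high nuclei (filled circles) and other excitatory nuclei (open squares), with 95% counting intervals as bars. The lower genes lie close together in both kinds of nucleus, while *Grik1*, *Syt9*, *Gria4* and *Sv2b* are near or below 0 only in *Tshz2*-high nuclei. The ratios of *Grik1*, *Syt9* and *Gria4* each change sign under at least 1 other setting.

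The 14 genes that the study named as lower in PZKO excitatory neurons, again chosen on these libraries, were all below 0 in *Tshz2*-high nuclei with intervals below 0 (21.0% of all genes). Their median was -0.69, against -0.64 in other excitatory nuclei. *Apoe*, a lipid carrier made mainly by glia, was at 157 CPM in PS19 and 101 CPM in PZKO (log2 ratio -0.64, -0.73 to -0.55). *Clu*, the chaperone clusterin, was at 124 and 72.5 CPM, and *Ubb*, a ubiquitin gene, at 73.6 and 36.9 CPM. The housekeeping genes *Gapdh* (80.6 and 50.02 CPM) and *Actb* (125 and 94.3 CPM) were lower as well. Of the 14 genes, 8 were lower in all 12 large subclusters and 14 in at least 9. The interval of the difference from other excitatory nuclei held 0 for 10 of them, beside 9898 of all 12855 genes. It lay below 0 for the other 4 (28.6%), beside 14.0% of all genes. *Apoe*, *Clu* and *Mt1* are transcripts of astrocytes as well. The 5 astrocyte markers summed to 524 CPM in PS19 and 515 CPM in PZKO *Tshz2*-high nuclei, with none at 0, but *Slc1a2*, a glutamate transporter and the most abundant, made up 433 and 450.3 CPM of this. The other 4 were lower in PZKO, *Gfap* at 29.5 and 16.0 CPM, *Aqp4* at 11.3 and 7.71 CPM, *Gja1* at 12.9 and 8.50 CPM and *Slc1a3* at 36.9 and 32.3 CPM, and their part in the result was not tested.

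Most genes of protein synthesis and energy metabolism were lower in PZKO, beside 60.1% of all genes below 0 and 21.0% with an interval below 0. Of 80 ribosomal protein genes measured (of 83), 0 were above 0 and 72 had an interval below 0, with a median of -0.44 against -0.32 in other excitatory nuclei. Of 75 nuclear genes of oxidative phosphorylation (of 81), 73 were below 0, with a median of -0.37. All 13 mitochondrially encoded genes were below 0, with a median of -0.69 that became -0.18 among nuclei with at most 1% mitochondrial UMIs, and the median share of mitochondrial UMIs per nucleus was 0.282% in PS19 and 0.219% in PZKO. The 14 heat shock protein genes measured (of 17) were below 0, with a median of -0.26, led by *Hsp90aa1* (126 and 80.4 CPM) and *Hspa8* (57.5 and 39.1 CPM). The ribosomal, oxidative phosphorylation and heat shock medians were below 0 in 12 of 12 large subclusters. The mitochondrially encoded median was below 0 in 10 of 12, and was 0.45 in subcluster 3 and 0.02 in subcluster 1. In other excitatory nuclei the ribosomal, oxidative phosphorylation and heat shock medians were -0.32, -0.35 and -0.31, and the mitochondrially encoded median was -0.60. The part of the lower mitochondrial share in these lists was not tested.

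Lists of channels, receptors and adhesion molecules had medians near that of all genes. The medians were 0.03 for 9 AMPA and kainate receptor genes, -0.00 for 6 NMDA receptor genes, 0.07 for 7 metabotropic glutamate receptor genes and -0.06 for 12 GABA-A receptor genes. They were 0.05 for 24 potassium channel genes, 0.09 for 15 sodium and calcium channel genes, 0.08 for 33 axon guidance genes, -0.04 for 20 cadherin genes and -0.04 for 14 synaptotagmin genes. Single genes within them stood out. *Grin2a*, an NMDA receptor subunit, had a log2 ratio of 0.20 (0.17 to 0.23) in *Tshz2*-high nuclei and -0.01 in other excitatory nuclei, and *Kcnh1*, a potassium channel gene, had 0.37 (0.27 to 0.46) and 0.13. In the other direction *Sema3c*, a secreted semaphorin, was at 11.7 and 6.11 CPM (-0.94, -1.28 to -0.60), *Cdh9*, a synaptic cadherin, at 64.0 and 44.1 CPM, and *Ntn1*, the guidance cue netrin 1, at 8.05 and 5.62 CPM (-0.52) against a log2 ratio of 0.79 in other nuclei.

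Of 16 neuropeptide genes 7 were measured, and all 7 were below 0 in *Tshz2*-high nuclei (60.1% of all genes), with a median of -0.44 that became -0.0096 when nuclei were thinned to 3000 UMIs. *Nts*, neurotensin, was at 7.26 and 3.53 CPM and *Cck*, cholecystokinin, at 48.4 and 35.6 CPM. Of 10 nuclear long noncoding RNAs, 6 were above 0 (median 0.08). *Malat1*, the nuclear RNA that took the largest number of UMIs on this list, had a log2 ratio of -0.06 in *Tshz2*-high nuclei and -0.38 in other excitatory nuclei. Of 20 interferon-stimulated genes 8 were measured, with a median of 0.05, and of 7 necroptosis genes 2 were measured, with a median of 0.06.

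**Figure D5:**
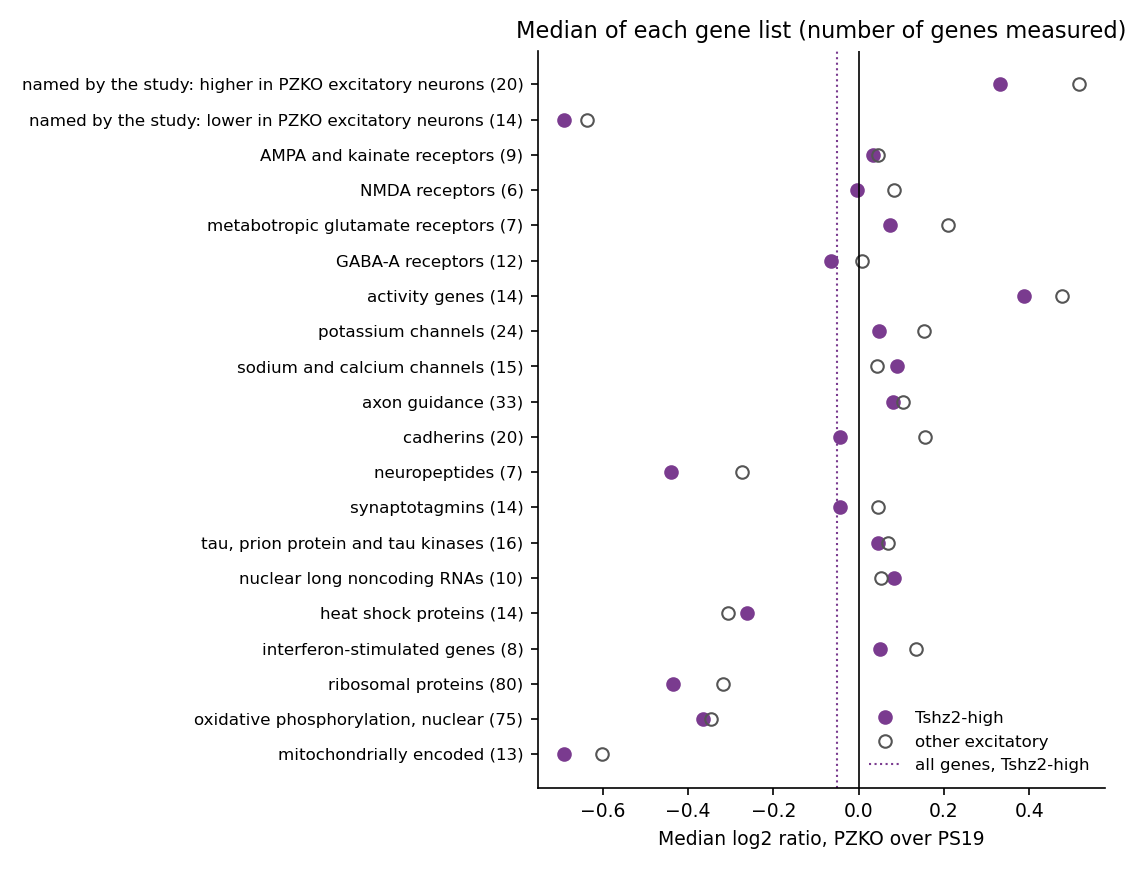
Median log2 ratio of PZKO over PS19 (x axis) for 20 gene lists (y axis, number of genes measured in brackets) in *Tshz2*-high nuclei (filled) and other excitatory nuclei (open), with the all-gene median of *Tshz2*-high nuclei as a dotted line. Mitochondrially encoded, ribosomal, oxidative phosphorylation, neuropeptide and heat shock genes lie to the left in both kinds of nucleus, and activity genes lie to the right.

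*Zbp1*, which encodes the sensor of Z-form nucleic acids that PZKO mice lack, had 0 UMIs in the *Tshz2*-high nuclei of both libraries, so it does not check the genotype in these nuclei. In other excitatory nuclei it had 12 UMIs in PS19 and 9 in PZKO, and a 3′ count does not show whether a knocked-out transcript is functional. *Mapt*, the mouse tau gene, was at 375 and 387 CPM (log2 ratio 0.05, -0.01 to 0.10). *Prnp*, the prion protein gene whose promoter drives the tau transgene, was at 231 and 173 CPM (-0.42, -0.49 to -0.35) and was lower in 12 of 12 large subclusters. With at most 1% mitochondrial UMIs its log2 ratio was -0.20. The 16 genes of tau, prion protein and tau kinases had a median of 0.05, with 10 above 0.

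*Ly6a*, *Itm2a* and *Slco1a4* were lower in PZKO in *Tshz2*-high nuclei and higher in other excitatory nuclei, with at least 50.7% of the *Tshz2*-high UMIs of each gene and library in subclusters 7 and 15. *Ly6a*, typical of endothelial cells, was at 4.37 CPM in PS19 and 1.94 CPM in PZKO *Tshz2*-high nuclei but at 1.53 and 6.24 CPM in other excitatory nuclei. *Itm2a* was at 6.56 and 2.77 CPM against 2.20 and 7.61 CPM, and *Slco1a4*, a transporter of the blood-brain barrier, at 18.2 and 9.94 CPM against 7.77 and 15.8 CPM. The intervals of *Flt1* (-0.45 to 0.09) and *Rgs5* (-0.55 to 0.32) in *Tshz2*-high nuclei held 0. These genes were at 15.1 and 13.4 CPM and at 5.86 and 5.39 CPM in *Tshz2*-high nuclei, against 4.60 and 18.9 CPM and 1.98 and 9.21 CPM in other excitatory nuclei. In PS19, 60.0% of the *Ly6a* UMIs and 68.0% of the *Itm2a* UMIs came from 1 nucleus each. The 5 endothelial and mural markers summed to 31.0 and 26.6 CPM in *Tshz2*-high nuclei and 15.9 and 45.1 CPM in other excitatory nuclei, none of them at 0, and without subclusters 7 and 15 the log2 ratio of *Ly6a* was -0.90 (-1.91 to 0.12), that of *Itm2a* was -0.14 (-0.99 to 0.77), that of *Slco1a4* was 0.61 (-0.27 to 1.59) and that of *Flt1* was 1.35 (0.49 to 2.33).

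Some genes typical of *Tshz2*-high nuclei also differed between the genotypes by subcluster. *Npsr1* was higher in PZKO over all *Tshz2*-high nuclei (log2 ratio 0.48, 0.38 to 0.58), at 104 and 127 CPM in subcluster 1 and 103 and 238 CPM in subcluster 2, but at 204 and 18.0 CPM in subcluster 8. *Vwc2l* was slightly lower over all nuclei (-0.11, -0.16 to -0.06), with log2 ratios from -3.05 in subcluster 9 to 1.27 in subcluster 11. *Sgcz* had 0.09 (0.07 to 0.11) over all nuclei and was higher in 7 of 12 large subclusters and lower in 5. For these genes the size and sign of the difference depended on the kind of *Tshz2*-high nucleus.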

How the data were processed

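The deposited values are UMI counts of each gene in each nucleus, which the authors made with Cell Ranger on mm10 without normalization. The labels name version 7.0.1, the matrix headers 8.0.1. The authors' later filters, ambient correction and clusters were not used here. Nuclei, lists and genes were chosen with earlier results of these data known.

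UMIs were summed over the nuclei of a group and library and given as CPM. Log2 ratios have exact conditional binomial (Clopper-Pearson) 95% intervals, which cover counting error only. A gene was compared with at least 100 UMIs in the *Tshz2*-high nuclei and 1 or more in each group and library. PZKO nuclei were deeper, so shares were repeated after thinning to 3000 UMIs. Subclusters came from Leiden clustering (scanpy 1.11.5, resolution 0.5, 20 components, 15 neighbours, 446 compared genes left out), both libraries together. Doublets were scored with Scrublet and kept. Positions are from GENCODE M21. The ratio and its interval were tested on simulated counts.

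Named genes were *Tshz2*, *Vwc2l*, *Sgcz*, *Zbp1*, *Mapt* and *Prnp*, the 15 most raised and 5 most lowered against other excitatory nuclei in PS19, the 10 highest and 10 lowest between the libraries, the 5 each way whose ratio differed most from other excitatory nuclei (all ranked by the interval end nearest 0), leading genes of subclusters, the 10 genes most like *Tshz2*, markers and members of lists. Alternatives included other limits, scalings (edgeR 4.0.16 TMM, DESeq2 1.42.0 size factors), a 5% ambient subtraction and removal of the highest Scrublet scores. Some members of the lists enter the counts and medians but are not reported here by name.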

Additional observations from a re-analysis of the deposited data

Results flagged for a closer look

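For 9 named genes the PZKO to PS19 ratio had opposite signs in *Tshz2*-high and other excitatory nuclei, with both counting intervals on one side of 0. *Pbld1*, *Cenpf*, *Gm16272*, *Ly6a*, *Itm2a* and *Slco1a4* had been named because their ratios differed most between these nuclei. The count is therefore set in part by that choice, and the pattern was not counted over all genes. The difference between the 2 log2 ratios was not tested, since each genotype is 1 library. *Pbld1* had a difference of 2.69 (log2 ratio 1.94 in *Tshz2*-high and -0.75 in other excitatory nuclei), *Cenpf* of 2.26 and *Gm16272* of 1.32. In the other direction *Ly6a* had a difference of -3.20, *Itm2a* of -3.03, *Slco1a4* of -1.89, *Gm49906* of -0.86, *Vwc2l* of -0.60 and *Erbb4* of -0.34. In PZKO *Tshz2*-high nuclei 43.4% of the *Pbld1* UMIs came from 1 nucleus, and in PS19 *Tshz2*-high nuclei 58.3% of the 12 *Cenpf* UMIs came from 1 nucleus. Without subclusters 7 and 15 the log2 ratio of *Slco1a4* in *Tshz2*-high nuclei was 0.61, and the intervals of *Ly6a* and *Itm2a* held 0. That of *Vwc2l* was 0.11 with equal weight of subclusters. For *Erbb4* 35.5% of the PS19 UMIs came from 1 nucleus and 51.1% of the PZKO UMIs from subclusters 7 and 15.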

How the results depend on the processing

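No paired analysis was possible because each genotype is 1 library. *Tshz2*-high nuclei made a larger share in PZKO under each of 6 alternative choices. The shares in PS19 and PZKO were 10.76% and 18.03% with at least 20 *Tshz2* UMIs per 10000 and 24.31% and 33.57% with at least 5, and in PS19 18.79% after thinning. *Vwc2l* and *Sgcz* were higher in *Tshz2*-high nuclei under every alternative. The *Vwc2l* log2 ratio in PS19 was 3.33 with the limit of 20, 3.99 with the limit of 5, 3.97 after thinning, 3.79 with at most 1% mitochondrial UMIs, 3.83 after ambient subtraction and 3.85 as a mean over nuclei. In PZKO it was 3.04 with the limit of 20, 3.61 after thinning, 3.19 without high Scrublet scores, 3.24 after ambient subtraction, 3.52 as a mean over nuclei and 3.05 without subclusters 7 and 15. For *Sgcz* these settings gave in PS19 1.62 (limit of 20), 2.15 (thinned), 2.05 (1% mitochondrial), 2.08 (ambient), 2.14 (mean over nuclei), 1.95 (without nuclei with glial markers) and 2.04 (without subclusters 7 and 15). In PZKO they gave 1.57 (limit of 20), 1.65 (limit of 5), 1.78 (thinned), 1.74 (Scrublet), 1.78 (ambient), 1.77 (mean over nuclei) and 1.81 (without subclusters 7 and 15). Leaving out subclusters 7 and 15 was added after the data had been seen.

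Counts of genes past 2-fold depended on the minimum of UMIs. With at least 20 UMIs per gene, 781 genes were higher and 1134 lower than in other excitatory nuclei in PS19, and 537 and 1029 in PZKO, while 276 were higher and 300 lower in PZKO than in PS19. With no minimum the last 2 counts were 771 and 1741. The PZKO count of lower genes against other excitatory nuclei was 217 after thinning, 684 as a mean over nuclei and 276 without nuclei with glial markers. The count higher in PZKO than in PS19 was 49 with the limit of 20, 75 with the limit of 5, 61 after ambient subtraction, 17 with equal weight of subclusters and 15 without subclusters 7 and 15. The count lower in PZKO was 31 with TMM and 31 with DESeq2 size factors, and 102 with equal weights. These scalings moved the median of all genes from -0.05 to 0.02 and 0.03.

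Of 273 list medians under the alternatives, 249 stayed within the interval of the reported value. The axon guidance median was 0.16 with DESeq2 size factors and the neuropeptide median -0.0096 after thinning. The ribosomal median was -0.48 with the limit of 20, -0.29 with 1% mitochondrial UMIs, -0.47 without high Scrublet scores, -0.37 with TMM and -0.36 with DESeq2. The oxidative phosphorylation median was -0.27 with 1% mitochondrial UMIs and -0.29 with DESeq2, and the mitochondrially encoded median was -0.18 with 1% mitochondrial UMIs and -0.82 with equal weights. The necroptosis median of 2 genes was 0.0766 at 6000 UMIs, 0.11 and 0.0790 with the limits of 20 and 5, 0.24 after thinning, 0.0526 with 1% mitochondrial UMIs, 0.0445 without high Scrublet scores, 0.0669 after ambient subtraction, -0.0297 as a mean over nuclei, 0.13 without nuclei with glial markers, 0.13 with TMM, 0.14 with DESeq2, 0.0303 with equal weights and 0.14 without subclusters 7 and 15.

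Some single genes turned sign between PZKO and PS19. After thinning the log2 ratio was -1.12 for *6330411D24Rik*, -2.79 for *Acta2*, -1.02 for *Myh11* and -0.0066 for *Gria4*. *Acta2* was also -0.70 with 1% mitochondrial UMIs, -0.23 without nuclei with glial markers and -0.65 without subclusters 7 and 15, where *Cdc14a* was -0.51 and *Slc6a20a* -0.33. *Gria4* was -0.0274 with 1% mitochondrial UMIs, and *Syt9*, at -0.21 with an interval that holds 0, was 0.18 as a mean over nuclei. *Grik1*, at -0.01, was 0.0577 with TMM and 0.0687 with DESeq2 size factors. Equal weights gave 0.31 for *Abhd12b*, -0.0569 for *Gria4* and 0.11 for *Vwc2l*. The cause of these shifts was not tested. PS19 alone gave 11 subclusters in place of 18, and the joint clustering and each library's own had adjusted Rand indices of 0.850 and 0.868.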
